A study of Mus musculus with 6 samples.

Results

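The nephron identity transcription factors are a set of 8 genes for DNA-binding proteins, Hnf4a, Hnf4g, Pax2, Pax8, Lhx1, Emx2, Pou3f3 and Tfcp2l1, picked by gene symbol from the 46517 genes counted in cultured kidney tubule cells. All 8 were found, and all 8 had enough reads to be tested. Their levels were measured by RNA sequencing in 6 primary cultures of renal tubule epithelial cells (RTECs) from kidneys of wild-type FvB mice, aged 4 to 6 weeks by the labels. All 6 cultures were grown with serum and EGF and then held for 24 h in medium without serum. After that, 3 cultures received 50 ng/ml TGF-β1 for 24 h, and the 3 CTL cultures are labelled control. The cells were grown out of a kidney suspension, so each culture can hold several tubule segments and other kidney cells. The sources do not say whether each culture came from a different mouse, and p-values therefore measure the spread between these cultures only.

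Transcription factors of this kind set and keep the identity of the nephron, the filtering and reabsorbing unit of the kidney. Pax2, Pax8, Lhx1 and Emx2 act early, when the epithelium of the kidney first forms, and Pax2 and Pax8 stay on in adult tubules. Later factors divide the tubule into segments: Hnf4a and Hnf4g in the proximal tubule, Pou3f3 in the loop of Henle and distal tubule, and Tfcp2l1 in the distal tubule and collecting duct. TGF-β1 is a cytokine of kidney fibrosis under which cultured tubule cells lose epithelial features, and comparing CTL with TGF-β1 cultures asks how far the transcripts of these factors differ after 24 h of treatment.

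RefSeq promoter sequences (GRCm38.p6), the 250 bases before an annotated transcript start, were found for 7 of the 8 genes, with 10 starts in all. Hnf4g was not matched. Shown here are the promoters of the members with the largest differences after TGF-β1, Hnf4a, Pax8 and Tfcp2l1, and the upstream Pax2 promoter, which holds a SMAD element. The sequences run from 5′ to 3′ on the gene's own strand and end at the base before the start, and capitals mark matches to the motifs described after them.
Hnf4a upstream start, chr2:163506607-163506856, plus strand: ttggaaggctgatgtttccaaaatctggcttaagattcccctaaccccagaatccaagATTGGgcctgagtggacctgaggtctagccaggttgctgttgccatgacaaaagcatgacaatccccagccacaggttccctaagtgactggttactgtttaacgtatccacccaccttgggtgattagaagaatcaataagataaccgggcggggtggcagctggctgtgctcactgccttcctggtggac
Hnf4a downstream start, chr2:163546905-163547154, plus strand: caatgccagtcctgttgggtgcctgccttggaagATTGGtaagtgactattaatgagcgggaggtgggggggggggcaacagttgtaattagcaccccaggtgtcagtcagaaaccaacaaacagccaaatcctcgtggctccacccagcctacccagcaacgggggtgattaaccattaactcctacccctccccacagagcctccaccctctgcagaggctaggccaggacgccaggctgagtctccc
Pax8, chr2:24475600-24475849, minus strand: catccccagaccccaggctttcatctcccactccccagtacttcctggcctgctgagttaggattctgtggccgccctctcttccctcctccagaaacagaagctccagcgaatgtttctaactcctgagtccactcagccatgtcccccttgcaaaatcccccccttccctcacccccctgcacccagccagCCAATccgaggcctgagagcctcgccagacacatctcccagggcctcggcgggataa
Tfcp2l1, chr1:118627695-118627944, plus strand: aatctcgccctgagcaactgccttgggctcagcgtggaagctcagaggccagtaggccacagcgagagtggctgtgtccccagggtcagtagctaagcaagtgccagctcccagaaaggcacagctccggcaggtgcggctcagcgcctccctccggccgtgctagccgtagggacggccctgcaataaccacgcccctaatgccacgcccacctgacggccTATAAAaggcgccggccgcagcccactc
Pax2 upstream start, chr19:44746351-44746600, plus strand: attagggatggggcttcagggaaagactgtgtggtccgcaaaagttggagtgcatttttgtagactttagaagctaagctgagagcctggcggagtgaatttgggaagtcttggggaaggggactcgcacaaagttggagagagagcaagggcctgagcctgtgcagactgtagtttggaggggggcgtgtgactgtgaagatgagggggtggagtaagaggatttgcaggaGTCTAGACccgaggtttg

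The motifs were searched on both strands as exact letters in the 250 bases of each of 32851 RefSeq promoters. The SMAD palindrome GTCTAGAC stood 18 to 11 bases before the upstream Pax2 start, against 0.167% of all promoters. That RefSeq start, 44746601, lies before the annotated start of the Pax2 gene in GENCODE, 44756045. The TATA box TATAAA stood 28 to 23 bases before the Tfcp2l1 start, against 12.4% of all promoters. The CCAAT box was held by 6 of the 10 member promoters, 57 to 53 bases before the Pax8 start among them, against 33.8% of all promoters. It was read on the minus strand (ATTGG as printed) in both Hnf4a promoters, 192 to 188 bases before the upstream start and 216 to 212 bases before the downstream start. Neither the HNF4 element CAAAGTCCA nor the RBPJ element GTGGGAA, the site of the Notch effector, stood in any of the 10 member promoters, and 0.384% and 5.42% of all promoters held them. These are matches of letters only, and counts per gene do not tell which start a transcript used.

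Of the 8 factors, Pax8 alone passed the threshold (adjusted p under 0.05, edgeR without a block) and was lower with TGF-β1, while 0 were higher. Over all 15862 genes tested, 6.69% were called lower and 5.0% were called higher by this rule. Cultures that shared a replicate number were more alike than the others in these data, although the sources do not state a pairing. With the replicate number as a block 5 of the 8 were lower, namely Pax8, Tfcp2l1, Hnf4a, Hnf4g and Pax2, and 0 were higher. With the block 19.1% of all genes were lower and 15.1% were higher. Lhx1, Emx2 and Pou3f3 passed in neither fit. The normalized values of Pax8, Tfcp2l1, Hnf4a and Hnf4g did not overlap between the groups and were lower with TGF-β1, which held for 18.0% of all genes tested. In addition to these, Pax2 and Pou3f3 were lower in all 3 same-numbered pairs, 6 of the 8 members in all, against 32.6% of all genes. Lhx1 and Emx2 were higher in all 3 pairs, by log2 ratios of only 0.060 to 0.22, and the share of all genes higher in all 3 pairs was not counted. The median log2 fold change of the members was -0.49, against -0.0028 over all genes tested. Summed over the 8 members, the level was 543 to 621 CPM (reads scaled to a common library size by TMM) in CTL and 364 to 470 CPM in TGF-β1 cultures.

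**Figure D1:**
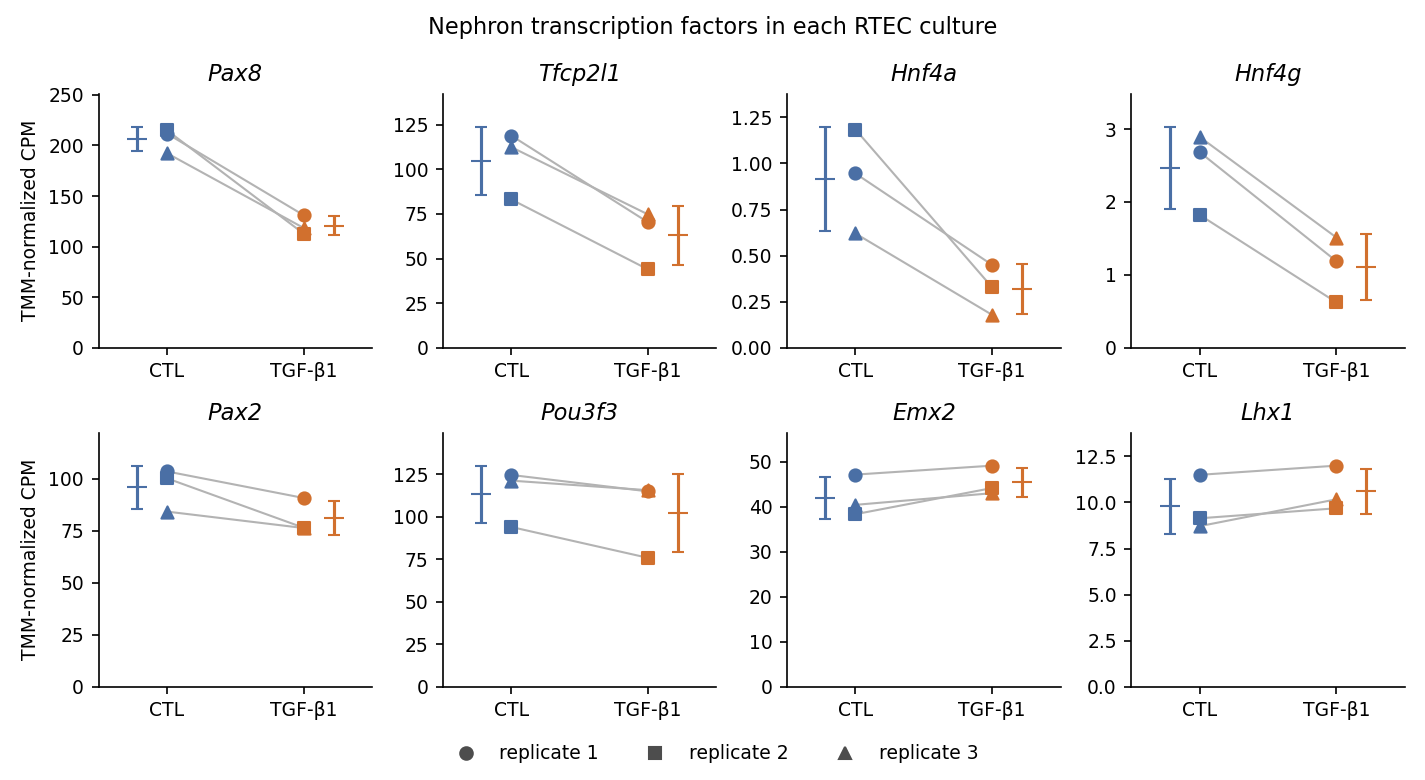
Level of each factor in each culture, in TMM-normalized CPM (y axis, from 0), in CTL and TGF-β1 cultures (x axis). Marker shape gives the replicate number, grey lines join same-numbered cultures, and the bars beside the points give the mean ± SD of 3 cultures. In the upper row (Pax8, Tfcp2l1, Hnf4a, Hnf4g) the groups do not overlap, and in the lower row (Pax2, Pou3f3, Emx2, Lhx1) they do.

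The 8 genes covered a wide range of levels, compared here as CPM per kb of exon so that long and short transcripts can be set side by side. Pax8 was the highest in CTL cultures, at 34 CPM per kb, followed by Pax2 at 17.7, Pou3f3 at 15.3, Emx2 at 14, Tfcp2l1 at 11.1, Lhx1 at 2.4, Hnf4g at 0.938 and Hnf4a at 0.190. Neighbours in this order differed in each of the 3 CTL cultures with no overlap of their ranges, except Pax2 with Pou3f3 and Pou3f3 with Emx2, each of which had the first gene above the second in 2 of 3 cultures. After TGF-β1 the means were 19.9 CPM per kb for Pax8, 15.1 for Emx2, 15.0 for Pax2, 13.8 for Pou3f3, 6.68 for Tfcp2l1, 2.61 for Lhx1, 0.421 for Hnf4g and 0.0659 for Hnf4a. Among these, the ranges of Emx2 (14.3 to 16.4), Pax2 (14.1 to 16.8) and Pou3f3 (10.2 to 15.6 CPM per kb) overlapped, and those of the other neighbours did not. Emx2 was above Pou3f3 in 2 of 3 TGF-β1 cultures. Both proximal tubule factors stood at the bottom. Among all genes tested, the mean level of Hnf4a was at percentile 3.51 and that of Hnf4g at percentile 18.6, whereas Pax8 was at percentile 87.4.

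**Figure D2:**
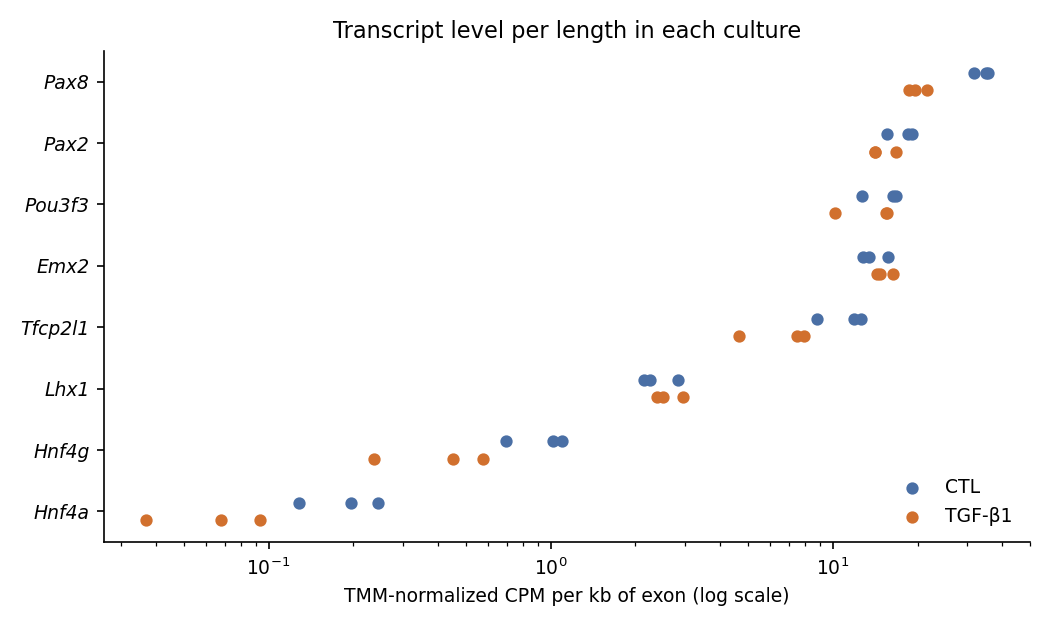
TMM-normalized CPM per kb of exon (x axis, log scale) of each factor (y axis, ordered by its CTL mean), 1 point for each of the 3 CTL (blue) and 3 TGF-β1 (orange) cultures. Pax8 is the highest and Hnf4a the lowest in both groups, and Pax2, Pou3f3 and Emx2 lie close together.

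Hnf4a (ENSMUSG00000017950.15, chromosome 2, 163506808 to 163572910 of GRCm38, plus strand) encodes the nuclear receptor that switches on proximal tubule genes. It had 31, 39 and 18 reads in CTL replicates 1, 2 and 3 and 14, 10 and 6 reads in the TGF-β1 replicates. These correspond to 0.946, 1.18 and 0.620 CPM in CTL and 0.449, 0.327 and 0.178 CPM with TGF-β1, above the 3 reads (0.0878 to 0.106 CPM) taken as the lowest level that can be read. Every TGF-β1 culture was below every CTL culture. The mean was 0.917 ± 0.283 CPM (SD, n = 3) in CTL and 0.318 ± 0.136 CPM (SD, n = 3) with TGF-β1, and the exact permutation test gave p = 0.1 (two-sided), the smallest p that 3 cultures against 3 allow. The log2 fold change was -1.53 (standard error 0.40), which did not pass in edgeR (adjusted p = 0.0591). With the replicate block it was -1.52 ± 0.28 (standard error; edgeR's adjusted p = 0.00448). The same-numbered pairs gave log2 ratios of -1.07, -1.86 and -1.80. At 6 to 39 reads in a library, counting error is a large part of each value.

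Hnf4g (ENSMUSG00000017688.13, chromosome 3, 3508030 to 3658052, plus strand), the paralog of Hnf4a, binds the same DNA element. Its counts were 88, 60 and 84 reads in CTL and 37, 19 and 51 reads with TGF-β1, or 2.68, 1.82 and 2.89 CPM against 1.19, 0.622 and 1.51 CPM. All TGF-β1 values lay below all CTL values, and replicate 2 was the lowest culture of both groups. The means were 2.47 ± 0.568 and 1.11 ± 0.451 CPM (SD, n = 3 each; two-sided exact permutation test, p = 0.1). The log2 fold change was -1.15 ± 0.35 (standard error; edgeR's adjusted p = 0.0874) and -1.17 ± 0.18 with the replicate block (standard error; edgeR's adjusted p = 0.00193). The log2 ratios within pairs were -1.18, -1.55 and -0.94.

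Hnf4a was the minor of the Hnf4 transcripts in every library. The log2 ratio of Hnf4a to Hnf4g, in reads per kb of exon, was -2.37, -1.49 and -3.07 in CTL and -2.25, -1.77 and -3.86 with TGF-β1. The group ranges overlapped, with means of -2.31 ± 0.79 and -2.63 ± 1.10 (SD, n = 3 each). Their difference of -0.32 did not exceed the spread between cultures (two-sided exact permutation test, p = 0.7), and its sign turned to 0.091 without CTL replicate 2 and to 0.30 without TGF-β1 replicate 3. The paired differences were 0.12, -0.28 and -0.79.

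Pax8 (ENSMUSG00000026976.14, chromosome 2, 24420560 to 24475599, minus strand) is a paired-domain factor needed, together with Pax2, for the kidney epithelium to form. Its level was 212, 215 and 192 CPM in CTL (6942, 7080 and 5585 reads) and 131, 113 and 118 CPM with TGF-β1 (4084, 3445 and 3992 reads). The lowest CTL culture was well above the highest TGF-β1 culture. Pax8 fell from 206 ± 12.2 to 121 ± 9.37 CPM (SD, n = 3 each), to 0.585 of its CTL level. Its log2 fold change was -0.77 ± 0.08 (standard error; edgeR's adjusted p = 0.00436), and with the replicate block -0.77 ± 0.06 (standard error; edgeR's adjusted p = 5.45e-05). The pairs gave -0.69, -0.93 and -0.70 on the log2 scale. In the 6 fits that each left out 1 culture, the Pax8 log2 fold change stayed between -0.83 and -0.73 with adjusted p of 0.00861 to 0.0370 from edgeR. Without both replicate 1 cultures it was -0.82 with an adjusted p of 0.214, in a fit that called 0 genes in either direction and had 1938 genes at an unadjusted p under 0.05.

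Pax2 (ENSMUSG00000004231.14, chromosome 19, 44756045 to 44837871, plus strand) differed less than its paralog. It had 104, 100.2 and 84.2 CPM in CTL and 90.8, 76.5 and 76.3 CPM with TGF-β1, so that TGF-β1 replicate 1 lay above CTL replicate 3. The means were 96.0 ± 10.3 and 81.2 ± 8.31 CPM (SD, n = 3 each; two-sided exact permutation test, p = 0.2). The log2 fold change was -0.24 ± 0.11 (standard error; edgeR's adjusted p = 0.193). With the replicate block it was also -0.24 ± 0.06 (standard error; edgeR's adjusted p = 0.0125), from paired log2 ratios of -0.19, -0.39 and -0.14.

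Within a library, Pax2 stood higher relative to Pax8 with TGF-β1 than in CTL in all 3 pairs. The log2 ratio of Pax2 to Pax8 in reads per kb of exon was -0.87, -0.94 and -1.03 in CTL and -0.36, -0.40 and -0.47 with TGF-β1. Pax8 was the more abundant in all 6 libraries, and the groups did not overlap. The means were -0.94 ± 0.080 and -0.41 ± 0.053 (SD, n = 3 each), a difference of 0.53 (p = 0.1 by the two-sided exact permutation test, its lower limit here). Within pairs the differences were 0.50, 0.54 and 0.56 (exact sign-flip permutation test, p = 0.25, the smallest for 3 pairs). This ratio is taken within a library and does not depend on the scaling between libraries.

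**Figure D3:**
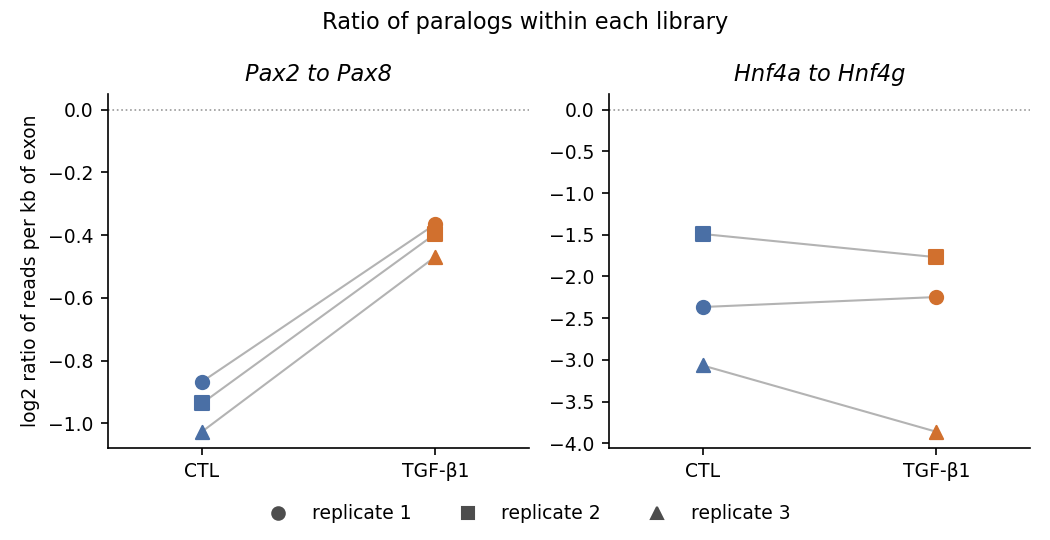
Log2 ratio of reads per kb of exon within each library (y axis) for Pax2 to Pax8 (left) and Hnf4a to Hnf4g (right), in CTL and TGF-β1 cultures (x axis), with lines joining same-numbered cultures and the dotted line at equal levels. The 3 Pax lines rise by 0.50 to 0.56 and the groups do not overlap, while the Hnf4 ratios of the groups do.

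Tfcp2l1 (ENSMUSG00000026380.10, chromosome 1, 118627945 to 118685168, plus strand) is a grainyhead-related factor of the distal tubule and collecting duct. Its level was 119, 83.1 and 113 CPM in CTL and 70.3, 43.9 and 74.8 CPM with TGF-β1 (3900, 2738 and 3267 against 2193, 1342 and 2521 reads). Replicate 2 was the lowest in both groups, and the groups did not overlap, the lowest CTL value being 83.1 and the highest TGF-β1 value 74.8 CPM. The means were 105 ± 19.1 and 63.0 ± 16.7 CPM (SD, n = 3 each; two-sided exact permutation test, p = 0.1). The log2 fold change was -0.73 (standard error 0.23), close to that of Pax8 but with a wider spread, and did not pass without the block (adjusted p = 0.10 from edgeR). With the replicate block it was -0.75 ± 0.06 (standard error; edgeR's adjusted p = 0.000113), and the pairs gave log2 ratios of -0.76, -0.92 and -0.59. Without both replicate 2 cultures Tfcp2l1 passed also in the fit with no block (adjusted p = 0.00273).

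Pou3f3 (ENSMUSG00000045515.3, chromosome 1, 42695768 to 42703176, plus strand), a POU-domain factor that patterns the loop of Henle and distal tubule, is a gene of a single exon. It had 125, 94.0 and 121 CPM in CTL and 115, 75.8 and 116 CPM with TGF-β1. The groups overlapped, and replicate 2 was the low culture of each. With means of 113 ± 16.8 and 102 ± 22.8 CPM (SD, n = 3 each), the log2 fold change was -0.15 ± 0.19 (standard error; edgeR's adjusted p = 0.665). With the replicate block it was -0.16 ± 0.05 (standard error; edgeR's adjusted p = 0.0525), just outside the threshold, from paired log2 ratios of -0.12, -0.31 and -0.068. Without TGF-β1 replicate 2 the value without the block turned to 0.020.

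Emx2 (ENSMUSG00000043969.4, chromosome 19, 59458372 to 59465357, plus strand) is a homeodomain factor of the early urogenital epithelium. It had 47.2, 38.4 and 40.4 CPM in CTL and 49.1, 44.2 and 43.0 CPM with TGF-β1. The means of 42.0 ± 4.60 and 45.4 ± 3.25 CPM (SD, n = 3 each) differed by a log2 fold change of 0.11 ± 0.10 (standard error; edgeR's adjusted p = 0.486), or 0.12 ± 0.05 with the replicate block (standard error; edgeR's adjusted p = 0.117). Lhx1 (ENSMUSG00000018698.14, chromosome 11, 84518284 to 84525535, minus strand), a LIM-homeodomain factor of the first nephron epithelium, had 11.5, 9.14 and 8.71 CPM in CTL and 12, 9.68 and 10.2 CPM with TGF-β1. Its means were 9.78 ± 1.5 and 10.6 ± 1.22 CPM (SD, n = 3 each), and its log2 fold change was 0.12 ± 0.14 (standard error; edgeR's adjusted p = 0.644), also 0.12 ± 0.08 with the replicate block (standard error; edgeR's adjusted p = 0.298). For both genes the groups overlapped, and replicate 1 was the highest culture of each group. Neither gene passed in either fit.

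**Figure D4:**
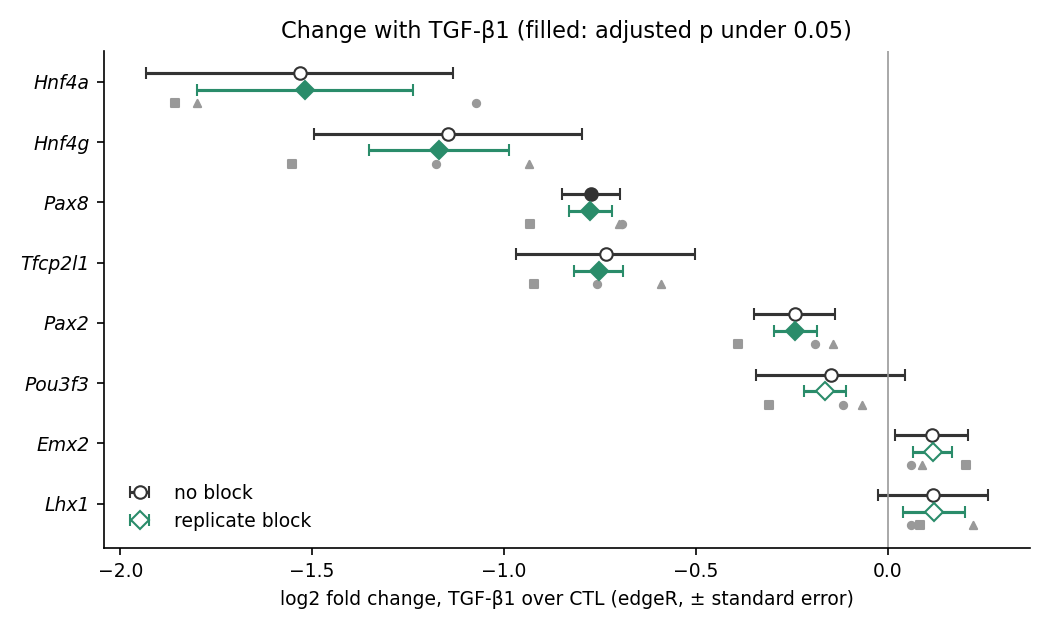
Log2 fold change of each factor, TGF-β1 over CTL (x axis), with its standard error from edgeR without a block (circles) and with the replicate block (diamonds). Filled symbols have an adjusted p under 0.05, and small grey symbols are the log2 ratios of the 3 same-numbered pairs, shaped by replicate number. Pax8 is filled in both fits, while Tfcp2l1, Hnf4a, Hnf4g and Pax2 are filled with the block only.

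The cultures of replicate 2 stood apart from the others in a way that touched some of the factors. The Y-linked transcripts Ddx3y, Eif2s3y, Kdm5d and Uty summed to at least 142 CPM in both replicate 2 cultures and to at most 0.172 CPM in the other 4. The paper describes the mice as male. Epcam, an epithelial adhesion molecule, was at 63.3 and 53.5 CPM in replicate 2 (CTL and TGF-β1), against 163 to 288 CPM in the other cultures. Pdgfrb, a receptor of fibroblasts and pericytes, was at 227 and 115 CPM, against 45.8 to 102 CPM. Other fibroblast and pericyte genes did not all follow Pdgfrb. Dcn and Foxd1 were also highest in replicate 2 of both groups, but Thy1, at low levels, was lowest there. Pdgfra, also at low levels, was lowest in replicate 2 with TGF-β1, while in CTL replicates 1 and 2 had 29 reads each. Thy1 was at 0.425 and 0.458 CPM in replicate 2, against 1.07 to 2.22 CPM. In replicate 2, Tfcp2l1 was lower than the mean of replicates 1 and 3 by a log2 difference of -0.48 in CTL and -0.72 in TGF-β1 cultures. For Pou3f3 these differences were -0.39 and -0.60, and for Hnf4g -0.61 and -1.12. Hnf4a had the opposite sign, 0.60 in CTL and 0.061 with TGF-β1. For Pax2, Pax8, Emx2 and Lhx1 they lay between -0.19 and 0.094 in both groups. The part of the cell makeup in these differences was not tested. In cultures that can hold several cell types, fewer cells of a type and less RNA per cell cannot be told apart.

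Markers of tubule epithelium (Epcam, Cdh1, Cdh16, Krt8, Krt18, Krt19 and Cldn4) were present in every culture, with a summed level of 1080 to 3580 CPM in CTL and 1121 to 2991 CPM with TGF-β1. Of these 7 genes Cdh16, the kidney-specific cadherin, alone passed without the block (4 were lower with it), and it fell from 262 ± 36.6 to 92.2 ± 19.7 CPM (SD, n = 3 each; adjusted p = 0.00922 from edgeR). Genes of the segments were detected unevenly. Slc34a1, the proximal phosphate transporter, was close to 0, at 0.186 CPM in CTL and 0.125 CPM with TGF-β1. Aqp2, the water channel of the collecting duct, was too, at 0.0878 and 0.0825 CPM. The proximal tubule list summed to 327 to 362 CPM in CTL, mostly from Dab2, Lrp2 and Ass1. The loop of Henle and distal tubule list summed to 207 to 280 CPM in CTL, mostly from Kcnj16, with Umod at 1.09 CPM and Slc12a1 at 0.683 CPM. The collecting duct list summed to 49.0 to 50.1 CPM in CTL, mostly from Car2 and Hsd11b2. Of other cell types, the podocyte gene Nphs1 was also near 0 (0.104 CPM in CTL), while the podocyte list summed to 418 to 598 CPM in CTL and 332 to 389 CPM with TGF-β1, mostly from Synpo. The fibroblast and pericyte list summed to 90.0 to 291 CPM in CTL and 55.3 to 137 CPM with TGF-β1, and the endothelial list to 37.6 to 56.1 and 25.2 to 39.4 CPM. In these 3 lists 0 genes passed without the block, and 3 of 3 podocyte, 3 of 6 fibroblast and 1 of 4 endothelial genes tested were lower with it, against 19.1% of all genes tested. The leukocyte list summed to 6.44 to 9.24 and 4.29 to 7.86 CPM, with 1 gene lower (Csf1r), and the urothelial list to 0.698 to 1.24 and 0.890 to 1.11 CPM. Of the summed levels of these other cell types, that of the podocyte list alone did not overlap between the groups and was lower with TGF-β1. Among the segment lists, the proximal tubule list (256 to 301 CPM with TGF-β1) was also lower without overlap. So was the loop of Henle and distal tubule list (63.9 to 120 CPM). The collecting duct list was higher (50.2 to 74.3 CPM) by a narrow margin, its highest CTL sum being 50.1 CPM. Its sum holds Hsd11b2, at 14.7 CPM in CTL and 46.2 CPM with TGF-β1. Of the 4 genes tested in it, 2 were lower and 1 was higher without the block, and 3 and 1 with it. The part of the cell makeup in the lower levels of the factors was not tested.

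Among 32 other transcription factors of the tubule and collecting duct, 30 were tested, of which 1 rose and 3 fell with TGF-β1 without the block, and 5 rose and 15 fell with it. Their median log2 fold change was -0.36, against -0.49 for the 8 members. For this list and those that follow, the shares over all genes tested were 5.0% higher and 6.69% lower without the block. With the block they were 15.1% higher and 19.1% lower. Irx3, an Iroquois factor, fell from 51.6 ± 5.90 to 29.2 ± 1.52 CPM (SD, n = 3 each; log2 fold change -0.82, adjusted p = 0.00698 from edgeR). Tfap2a, an AP-2 factor, fell from 4.07 ± 1.29 to 1.45 ± 0.382 CPM (log2 fold change -1.49, adjusted p = 0.0311), and Nr1h4, the bile acid receptor, from 1.18 to 0.426 CPM (adjusted p = 0.0233), the latter named after its values were seen. Cux1, a homeodomain factor, rose from 288 ± 4.25 to 355 ± 11.1 CPM (log2 fold change 0.30, adjusted p = 0.0157).

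**Figure D5:**
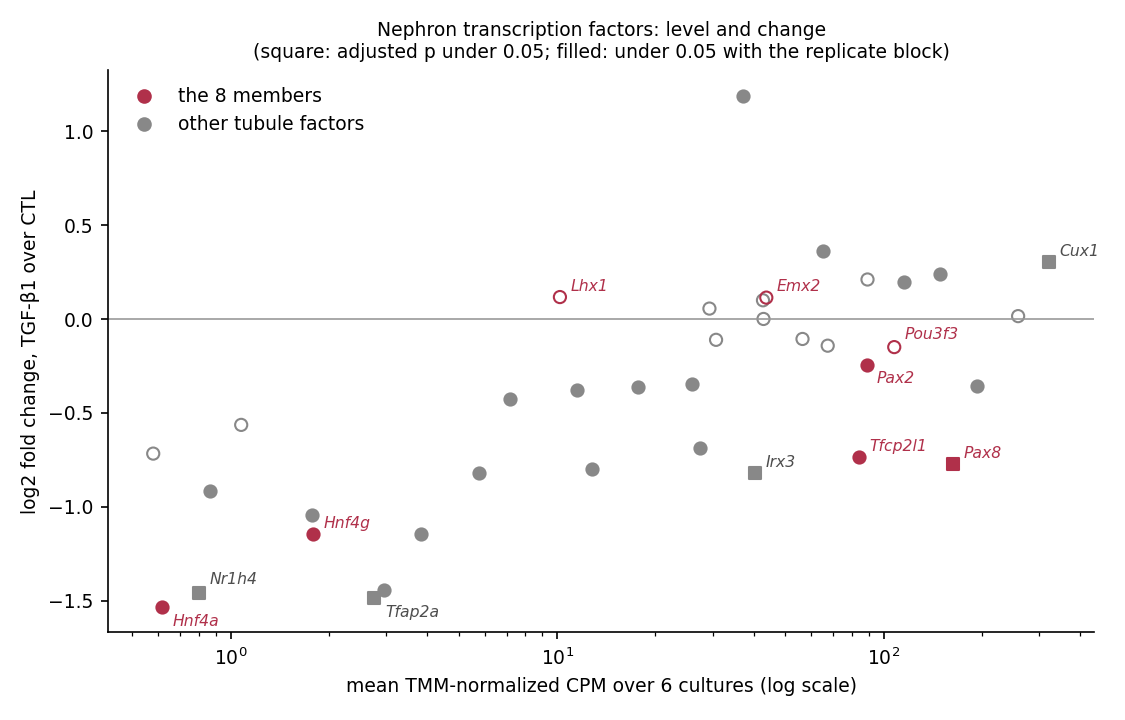
Mean TMM-normalized CPM over the 6 cultures (x axis, log scale) against the log2 fold change, TGF-β1 over CTL (y axis), for the 8 members (red) and 30 other tubule and collecting duct transcription factors (grey). Squares have an adjusted p under 0.05 without the block, and filled symbols with the replicate block. Hnf4a, Hnf4g and Tfap2a lie at the lower left, with low levels and log2 fold changes from -1.53 to -1.15.

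Of 15 factors of nephron progenitors and early nephrons, 10 were tested, and 2 rose while 0 fell without the block (2 and 2 with it). Sox11, an SRY-related factor, rose from 177 ± 13.9 to 331 ± 8.35 CPM (SD, n = 3 each; log2 fold change 0.90, adjusted p = 0.00254 from edgeR), and Bcl11a, a zinc finger factor, from 1.23 ± 0.453 to 2.96 ± 0.363 CPM (log2 fold change 1.27, adjusted p = 0.0354). The defining progenitor factors Six2, Cited1, Meox2, Uncx and Hes5 had too few reads to be tested, and Uncx and Hes5 had 0 reads in all 6 libraries, which allows up to 0.106 CPM in the smallest of them. The list's median log2 fold change was 0.014.

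Genes that the segments use were also counted, as the background against which the factors act. Of 32 proximal tubule genes 14 were tested, and 7 fell and 1 rose (10 and 1 with the replicate block), with a median log2 fold change of -0.92. Slc6a18, an amino acid transporter, fell from 21.1 ± 13.4 to 0.556 ± 0.0470 CPM (SD, n = 3 each, as for the genes that follow) (adjusted p = 0.00891 from edgeR), Fgb, a fibrinogen chain, from 32.8 ± 10.2 to 0.528 ± 0.126 CPM (adjusted p = 0.00121), and Aqp1, a water channel, from 11.2 ± 4.15 to 1.48 ± 0.462 CPM (adjusted p = 0.00919). Ass1, an enzyme of arginine synthesis, rose from 68.7 ± 8.45 to 149 ± 39.5 CPM (adjusted p = 0.0228). Of 16 loop of Henle and distal tubule genes 8 were tested, and 2 fell without the block (6 with it), Kcnj16, a potassium channel, from 230 ± 34.5 to 82.3 ± 26.6 CPM (adjusted p = 0.0205) and Cldn19, a claudin, from 8.89 ± 1.81 to 2.74 ± 0.786 CPM (adjusted p = 0.0128). Of 16 collecting duct genes 4 were tested, and 2 fell and 1 rose without the block (3 and 1 with it). Car2, a carbonic anhydrase, fell from 29.5 ± 6.36 to 16.5 ± 2.05 CPM (adjusted p = 0.0355), as did Scnn1a, a sodium channel subunit, from 3.27 ± 0.480 to 1.47 ± 0.407 CPM (adjusted p = 0.0355), while Hsd11b2, which inactivates glucocorticoids, rose from 14.7 ± 5.84 to 46.2 ± 14.5 CPM (adjusted p = 0.0415). The genes of these 3 lists that were not tested did not pass the filter on low counts. That filter is met by enough reads in 3 cultures, so a gene read in CTL alone is tested and can only be lower. Slc17a1, among the 7 proximal tubule falls, was close to this, with 16, 12 and 10 reads in CTL and 0, 0 and 2 with TGF-β1. A gene read with TGF-β1 alone can likewise only be higher. The counts and medians of these lists are not free of this.

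The genes whose log2 levels over the 6 cultures were most like each member were picked from 13554 genes with a mean of at least 1 CPM, by Pearson's r, as a description. So large a pool gives values near 1 by selection, and the points share the CTL and TGF-β1 grouping and the 3 replicate numbers. For Pax8 they were Kank1, Cdh13 and Aurkb (r = 0.999, 0.997 and 0.997), for Tfcp2l1 Tor2a, Cp and Slc16a12 (0.999, 0.998 and 0.997), for Hnf4g Exph5, Wwp2 and Me3 (0.999, 0.998 and 0.998), and for Hnf4a Ccdc159, Fn3krp and Zfp740 (0.997, 0.995 and 0.994). For Pax2 they were Pomt1, Zfp94 and Chrac1 (0.994, 0.993 and 0.989), and for Pou3f3 Rnf43, Rabl2 and Cd74 (0.995, 0.992 and 0.992). Emx2 was most like Ercc2, Slc25a17 and Usp36 (0.991, 0.983 and 0.975), and Lhx1 most like 1110059G10Rik, Slc25a17 and Yjefn3 (0.974, 0.964 and 0.957). No member was among the 3 most like genes of another member.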

How the data were processed

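The authors trimmed single-end reads with Trim Galore, aligned them to GRCm38 with STAR 2.4.1d and counted them per gene with HTSeq 0.6.1 (tool versions from the submitters' processing notes). The deposited values are whole-read counts per gene, without normalization. Reads on several places or several genes were left out by this counting. The annotation release and the strand setting are not given in the sources used here. Counts on genes summed to 28313080 to 34183497 per library, with a floor of 3 reads (counting error only), and no pair of libraries of a group agreed within sampling noise (chi-square per degree of freedom of 9.02 or more).

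Gene identifiers were matched to GENCODE M21 (46005 of 46517), and exon lengths are unions of its exons. Counts were tested in R 4.3.3 with edgeR 4.0.16 (filterByExpr by condition, TMM, robust glmQLFit, glmQLFTest, two-sided), adjusted by Benjamini-Hochberg over 15862 genes, with a threshold of 0.05. The study compares the groups without pairing, so this fit had no block. Cultures sharing a replicate number were nevertheless more alike, least clearly for replicate 1, although the sources do not state a pairing. Deviations from the group means had a correlation of 0.340, 0.684 and 0.572 for cultures sharing number 1, 2 and 3 and of -0.617 to 0.215 for the others. A fit with the replicate number as a block is therefore given beside the results for the members and beside the list counts it changes. Alternatives were DESeq2 1.42.0, limma-voom (limma 3.58.1), other normalizations and filters, and leaving out cultures. Ratios of paralogs used 0.5 reads added to each count. Figures were drawn with matplotlib 3.10.9.

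The members, gene lists and tests were chosen with earlier results of these data known. Named genes were all 8 members, for each list up to 3 called rises and 3 called falls among genes averaging 1 CPM or more, and the 3 genes most like each member. Some genes under these rules are not reported here.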

Additional observations from a re-analysis of the deposited data

How the results depend on the processing

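Without the block 1 of the 8 members was lower with TGF-β1. This count was 5 with the replicate block, 4 with DESeq2, 2 with library size only, 2 with no filter beyond 1 count, 0 when the replicate 1 pair was left out and 3 when the replicate 2 pair was left out (Pax8, Hnf4g and Tfcp2l1), and 1 in every fit that left out 1 culture. Over all genes fitted, those lower were 1061 of 15862 without the block, 3037 of 15862 with it and 1499 of 27562 with DESeq2. They were 1467 of 15862 with library size only and 1001 of 27562 with no filter beyond 1 count. Without the replicate 1 and replicate 2 pairs they were 0 of 15961 and 1290 of 15955, and with 1 culture left out 186 to 807. The count of members higher was 0 in every alternative run. Pax8 passed in 15 of 16 alternatives, Hnf4a in 4 of 15, Hnf4g and Tfcp2l1 in 3 of 16 each, Pax2 in 1 of 16 (the block), and Lhx1, Emx2 and Pou3f3 in 0. Hnf4a gave no value with at least 10 counts required in every sample. Pou3f3 ranged from -0.27 to 0.020 with 1 culture left out, the latter without TGF-β1 replicate 2. Leaving out 1 culture at a time gave -0.75 to 0.30 for the Hnf4a to Hnf4g ratio, with the sign turned at 0.091 and 0.30, and 0.49 to 0.57 for the Pax2 to Pax8 ratio.

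Of the other tubule factors, 1 rose and 3 fell. These counts were 5 and 15 with the replicate block, 2 and 6 with DESeq2, 0 and 0 when the replicate 1 pair was left out, 3 and 6 without the replicate 2 pair, 0 and 1 without the replicate 3 pair, and 0 and 1 at an adjusted p under 0.01. With 1 culture left out they ranged from 0 to 1 and from 1 to 3. Over all genes, 2388 rose and 3037 fell with the replicate block, and 1109 and 1499 with DESeq2. Without the replicate 1 pair 0 and 0 did, without the replicate 2 pair 1084 and 1290, and without the replicate 3 pair 95 and 190. The fits that left out cultures had no block, and the cause of these differences was not tested. Library size only moved the median of all genes to -0.077. Depth limits Hnf4a and Hnf4g most, at 6 to 88 reads in a library.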

Other observations

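Annotated genes that overlap the members were counted as well, since the strand setting of the counting is not given and reads on shared exon bases can be lost from both genes. Gm13415, on the strand opposite to Pax8 with 367 exon bases shared, had 27, 31 and 17 reads in CTL and 15, 19 and 15 reads with TGF-β1, against 3445 reads or more for Pax8 in every library. Emx2os, the antisense transcript of Emx2 with 264 exon bases shared, had 76, 83 and 71 reads in CTL and 60, 96 and 82 reads with TGF-β1, against 1174 or more for Emx2. Hnf4aos, antisense to Hnf4a, had 0 reads in all 6 libraries, as did Gm23497, a small nuclear RNA gene that shares 130 exon bases with Tfcp2l1. Within Pax2, the antisense 1700039E22Rik had 4 to 16 reads in a library and shares no exon base with it, and AC122898.1, on the strand of Pou3f3, had 2 to 13.

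Maf, a bZIP factor of the other tubule list, had 19.8, 33.2 and 14.6 CPM in CTL and 42.6, 76.9 and 34.9 CPM with TGF-β1, and replicate 2 was the highest culture of both groups. It was chosen after its values were seen. Its log2 fold change of 1.19 had an adjusted p of 0.120 from edgeR without the block and of 6.22e-06 with the replicate block.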
